A study of Mus musculus with 20 samples.

Results

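The genes described here are 46 genes of DNA replication and of the passage from G1 into S phase, read in 20 single cells of the mouse inner cell mass. They were chosen by name, and each was represented by its brightest probe set over the 20 cells. A probe set was found for 45 of the 46 (Chaf1a had none in the annotation used here), out of 18193 genes on the array. The cells came from C57BL/6 blastocysts at embryonic day 3.5. Per the series design, trypsin-dissociated cells were picked randomly (55 in all), and 50 passed a PCR screen that required Oct4 and no Cdx2. The 20 arrays each carried cDNA amplified from 1 cell, all 20 cells formed 1 group, and the labels gave no treatment and tied no cell to an embryo. The cells therefore count as 1 sample, and the values below are descriptions with no p-value.

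In background, replication begins when D-type cyclins with CDK4 and then E-type cyclins with CDK2 release the E2F factors from the retinoblastoma proteins, and E2F switches on the genes of the replication machinery. The origin recognition complex, CDC6 and CDT1 load the ring-shaped MCM helicase on DNA in G1, and CDC45 and the GINS complex start it in S phase. Polymerase alpha with primase lays down primers, and the polymerases delta and epsilon, held by the PCNA clamp, copy the strands. Cells of the early mouse embryo and embryonic stem cells are known for short G1 phases.

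E2F is a known regulator of this family, so promoters that hold its letters are shown for 4 helicase genes and for 2 genes with wide spread between cells. They were chosen for holding a match. The letters searched were TTTCCCGC, TTTGGCGC, TTTCGCGC and TTTGCCGC on both strands, in windows from 250 bases before to 50 bases after the gene start (RefSeq, GRCm38.p6). Of the 46 genes, 36 had a window in the table, and 12 of these (33.3%) held at least 1 of the words, against 2.61% of 27025 genes. The share was 38.2% (13 of 34) among other fork and origin genes, so it is not particular to the 46. The capitals mark the words in either orientation, and in Mcm5 and Mcm6 words on opposite strands overlap. The windows lie at chr1:20820263-20820562 (minus strand) for Mcm3, chr8:75109259-75109558 (plus) for Mcm5, chr1:128359656-128359955 (minus) for Mcm6, chr5:138171834-138172133 (minus, 1 of 2 windows, the other without a word) for Mcm7, chr4:108579204-108579503 (plus) for Orc1 and chrX:93632106-93632405 (minus) for Pola1.
Mcm3: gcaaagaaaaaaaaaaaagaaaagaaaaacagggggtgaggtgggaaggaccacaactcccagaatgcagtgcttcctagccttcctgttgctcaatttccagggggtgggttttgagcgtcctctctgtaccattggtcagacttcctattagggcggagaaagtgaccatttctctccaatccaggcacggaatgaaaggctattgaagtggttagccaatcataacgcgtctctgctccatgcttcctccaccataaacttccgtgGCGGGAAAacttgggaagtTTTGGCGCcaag
Mcm5: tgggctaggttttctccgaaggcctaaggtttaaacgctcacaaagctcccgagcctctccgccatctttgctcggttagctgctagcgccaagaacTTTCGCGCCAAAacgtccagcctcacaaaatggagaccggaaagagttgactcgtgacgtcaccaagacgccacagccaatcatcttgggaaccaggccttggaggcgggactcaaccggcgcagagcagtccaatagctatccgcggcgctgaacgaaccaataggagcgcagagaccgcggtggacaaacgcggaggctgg
Mcm6: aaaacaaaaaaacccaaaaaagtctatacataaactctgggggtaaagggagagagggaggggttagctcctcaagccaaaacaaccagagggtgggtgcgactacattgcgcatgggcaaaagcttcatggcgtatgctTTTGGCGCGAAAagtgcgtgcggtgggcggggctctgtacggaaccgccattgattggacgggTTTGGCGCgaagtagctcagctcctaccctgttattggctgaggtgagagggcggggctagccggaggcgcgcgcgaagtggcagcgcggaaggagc
Mcm7: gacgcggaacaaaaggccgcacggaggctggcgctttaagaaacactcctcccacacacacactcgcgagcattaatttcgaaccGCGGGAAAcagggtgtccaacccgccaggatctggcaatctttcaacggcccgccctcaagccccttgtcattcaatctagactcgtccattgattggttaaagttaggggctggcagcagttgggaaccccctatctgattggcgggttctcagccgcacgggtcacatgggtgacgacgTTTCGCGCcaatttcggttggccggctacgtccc
Orc1: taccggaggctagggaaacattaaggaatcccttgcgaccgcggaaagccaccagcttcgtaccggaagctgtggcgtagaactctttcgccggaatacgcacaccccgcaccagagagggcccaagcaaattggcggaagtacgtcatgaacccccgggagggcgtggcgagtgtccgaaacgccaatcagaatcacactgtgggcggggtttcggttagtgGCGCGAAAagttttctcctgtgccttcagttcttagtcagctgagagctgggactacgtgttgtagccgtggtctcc
Pola1: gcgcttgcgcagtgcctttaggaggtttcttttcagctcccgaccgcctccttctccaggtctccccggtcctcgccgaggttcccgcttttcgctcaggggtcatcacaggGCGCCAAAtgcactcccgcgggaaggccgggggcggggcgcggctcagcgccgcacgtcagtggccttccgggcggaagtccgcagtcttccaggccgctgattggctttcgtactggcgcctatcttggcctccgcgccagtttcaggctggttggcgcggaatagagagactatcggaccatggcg
The window of Mcm6 held 3 words, those of Mcm3, Mcm5 and Mcm7 held 2 each, and those of Orc1 and Pola1 held 1 each. Windows of Cdk2, Cdc6, Cdt1, Pold1, Rfc3 and Lig1 also held at least 1. The other 24 held none, among them those of Mcm2, Pcna and Ccne1, of which Ccne1 also varied widely between cells. Only windows at annotated starts were searched. A window without a word therefore does not show that the promoter of the gene lacks one. For comparison, TTTGAA, the letters of the CHR element known from mitotic genes, lay in the windows of 17 of 26 genes of the G2 and M phase list (65.4%), of 3 of the 36 replication genes (8.33%), of 7 of 34 other fork and origin genes (20.6%) and of 20.2% of all genes, while an E2F word lay in 1 of those 26. These matches describe letters, not bound sites.

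Levels are log2(intensity + 8.48) after quantile normalization, on which 3.25 is the lowest value possible. A floor was set for each array from genes of unrelated tissues and lay between 6.31 and 7.13. A level under it is not told apart from no transcript, and in single cells a missing transcript and one lost in amplification cannot be told apart. Between 37.1% and 46.2% of genes per cell were above it. Cell 19 had a median deposited intensity of 14.97, against 25.56 to 30.14 in the others. Pou5f1 (Oct4), the gene of the PCR screen, was above the floor in all 20 cells. The cells were clustered on 500 variable genes that included neither the replication genes nor lineage markers, into 10 epiblast-like cells (1, 2, 7, 9, 12, 13, 14, 16, 18 and 19) and 10 primitive endoderm-like cells (3, 4, 5, 6, 8, 10, 11, 15, 17 and 20). The mean silhouette was 0.105. Cell 16 changed side in 3 of 8 repeats of the clustering under other settings and cell 6 in 1. Of 9 epiblast markers 7, and of 15 primitive endoderm markers with a probe set 12, were higher by at least 1 log2 unit in the cluster of their name. The epiblast forms the embryo proper, and the primitive endoderm an extraembryonic layer. Cells 4, 8, 17 and 20 had the lowest G2 and M phase scores and stood apart, with mean correlations to the other cells from 0.609 to 0.648 against 0.651 to 0.689, so results that move with them are also given without them. Of 13 trophectoderm markers, 5 were under the floor throughout (Gata3, Elf5, Krt19, Krt7 and Atp12a). Cdx2, whose absence the PCR screen required, was above the floor in all 20 cells by the brighter of its 2 probe sets (6.81 to 8.26). These levels lay near the floor and were even (SD 0.35). They therefore do not show that Cdx2 transcript was present. Tfap2c (2.22) and Lgals3 (1.46) were higher in the epiblast-like cells, and Eomes (-1.70), Krt8 (-1.60) and Tead4 (-1.09) in the other cluster. These markers were named after their values were seen. The summed trophectoderm level ran from 13.69 to 14.03 in epiblast-like and from 13.77 to 14.04 in endoderm-like cells, nearly all of it from Hand1. Hand1 was nearly constant, between 13.58 and 13.78 in every cell (SD 0.08). The sum therefore could hardly show a difference in the other markers. Of 6 oocyte markers, Zp3 and Oosp1 had epiblast-like means higher by at least 1 log2 unit, and the list summed to 8.55 to 10.1 against 7.76 to 8.39. The part of these markers in the results below was not tested.

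Most of the replication machinery was read in every cell. Of the 45 genes, 32 were above the floor in all 20 cells (background: 18% of 18193 genes). In at least 3 cells 44 were (background: 10437 of 18193 genes), and in at least 10 cells 41 (background: 7843 of 18193). The exception was Tyms, which encodes thymidylate synthase: its brightest probe set exceeded the floor in 0 cells (background: 33.5% of 18193 genes), with 4.49, 5.39 and 6.41 as lowest, median and highest level, although another of its 4 probe sets was above the floor in 5 cells and a further 1 in 2. The SD over cells of the 32 genes read in every cell ran from 0.15 to 1.06 with a median of 0.62, and 13 of them had an SD under 0.5. The heat map of levels shows these even rows beside the patchy rows of Ccne1, Ccne2 and Pola1.

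**Figure D1:**
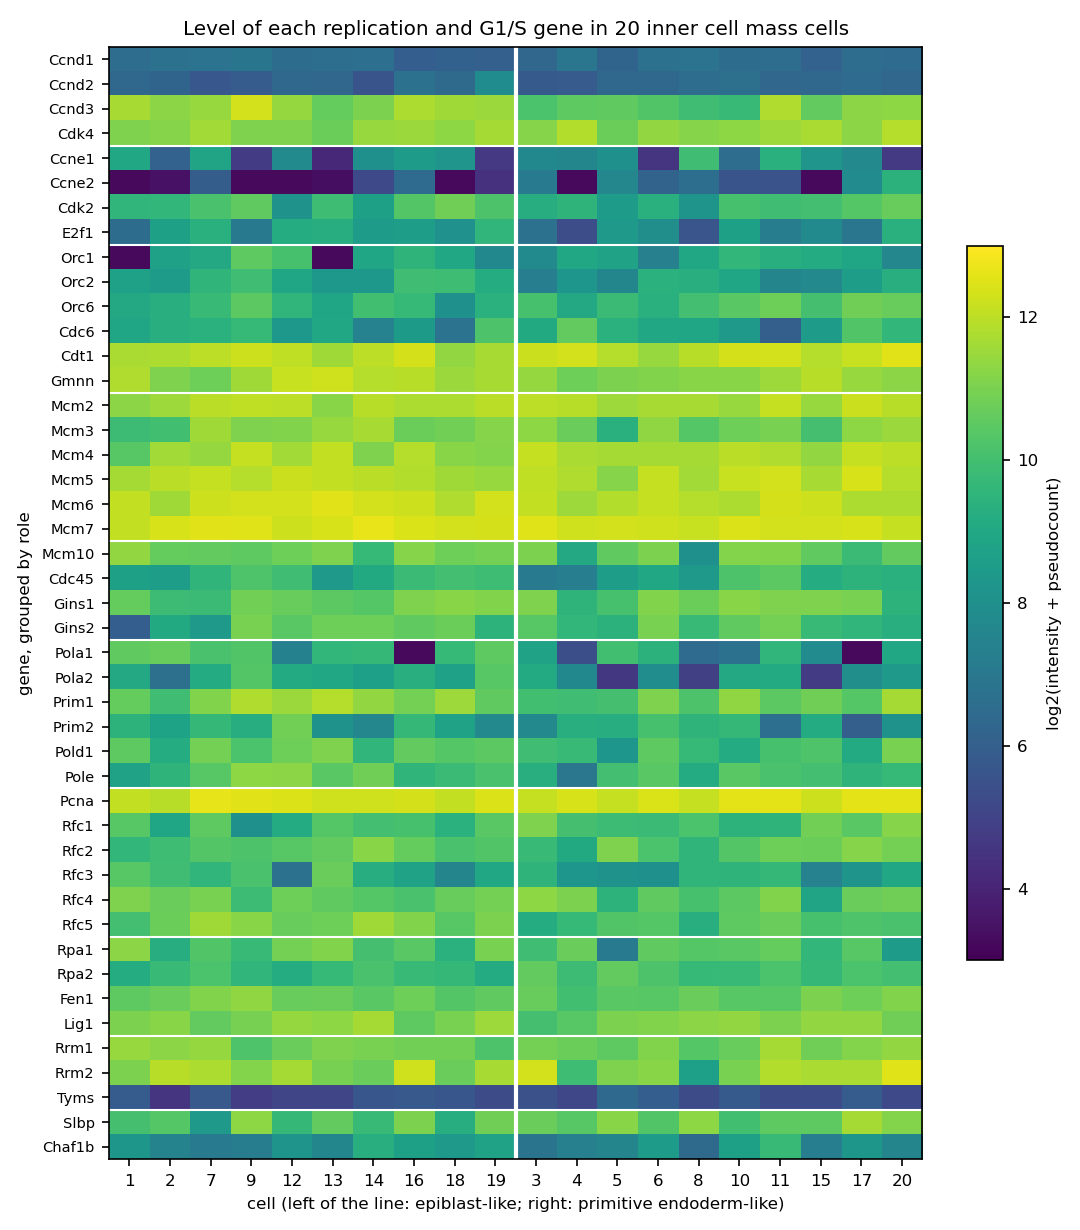
Level of each of the 45 genes (rows, grouped by role) in the 20 cells (columns, epiblast-like left of the line and primitive endoderm-like right), as log2(intensity + pseudocount) in colour. The rows of Mcm7 and Pcna are nearly uniform, with SDs of 0.15 and 0.22. By contrast, Ccne2, Orc1 and Pola1 have cells at the lowest possible value, and Ccne1 has cells down to 4.15.

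The genes of the G1 engine differed in whether they were read at all. Ccnd3, the D-type cyclin read in all 20 cells, had 9.75, 11.26 and 12.34 as lowest, median and highest level. The epiblast-like cells lay between 10.64 and 12.34 (11.47 ± 0.45, SD, n = 10) and the primitive endoderm-like cells between 9.75 and 11.80 (10.62 ± 0.65), so the groups overlapped, with a difference in means of 0.85 log2 units. The other 2 probe sets of Ccnd3 were each above the floor in 1 cell, and with the mean of all 3 the difference was 0.15. By its brightest probe set, Ccnd1 was above the floor in 7 cells and never higher than 6.91. Its other 2 probe sets were above the floor in 4 cells and in 1 cell, with r = -0.02 and 0.23 to the brightest. Ccnd2 was above the floor in 4 cells, with 5.60, 6.34 and 7.87 as lowest, median and highest level. The cell with 7.87 was cell 19. Of 6 further Ccnd2 probe sets, 5 were above the floor in 0 cells and 1 in 2 cells. Cdk4, the kinase partner of the D-type cyclins, was read in all 20 cells (10.74, 11.30 and 11.91), and its other 2 probe sets followed it over the cells with r = 0.98 each. Its mean differed by -0.14 between the clusters.

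The E-type cyclins, which drive entry into S phase, varied from cell to cell. Ccne1 exceeded the floor in 13 cells (6 of the epiblast-like, 7 of the others), and its levels ran from 4.15 in cell 13 to 9.95 in cell 8 with a median of 7.73. Its second probe set was also above the floor in 13 cells and followed the first with r = 0.98. Cells 6, 9, 13, 19 and 20 were at or below 4.73, and 3 of these 5 were epiblast-like, so low and high cells occurred in both clusters.

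Ccne2 exceeded the floor in 6 cells, of which 1 was epiblast-like (cell 16, at 6.51, a cell that changed side in some repeats). The epiblast-like cells had 3.25, 3.43 and 6.51 as lowest, median and highest level, and the primitive endoderm-like cells 3.25, 6.41 and 9.42. In all, 6 cells were at the lowest possible value, 4 of them epiblast-like. The difference in means was -2.05 log2 units (4.19 ± 1.26 against 6.24 ± 1.95, SD, n = 10 each). Raising values under the floor to it left a difference of -0.64, and only 1 probe set reads this gene. The highest levels were in cells 20 (9.42) and 17 (7.81), which both had low mitotic scores, while cells 4 and 8, with the lowest mitotic scores, were at 3.25 and 6.62. These cells were singled out after their values were seen.

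Cdk2, the kinase of the E-type cyclins, was above the floor in all 20 cells, at 8.14, 9.91 and 10.81, and differed by 0.21 between clusters. E2f1, a transcription factor that activates replication genes, was above the floor in 17 cells. Its epiblast-like cells had 6.53, 8.64 and 9.56 as lowest, median and highest level, and its primitive endoderm-like cells 5.37, 7.49 and 9.35. The groups overlapped, with a difference in means of 1.07 (8.48 ± 1.004 against 7.40 ± 1.27). Its 2 lowest cells were 4 and 8 (5.37 and 5.65). Without cells 4, 8, 17 and 20 the difference was 0.69, and without cell 19 it was 0.95. A second E2f1 probe set, read in 11 cells, differed by 1.73 but followed the first with r = 0.23 only.

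**Figure D2:**
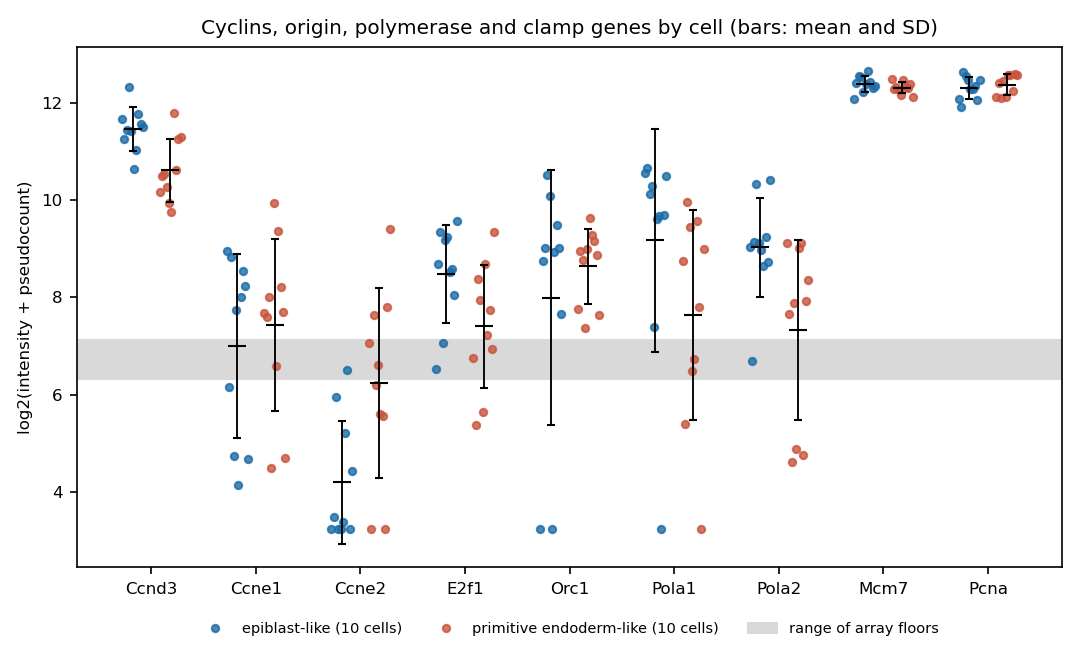
Levels of 9 genes in each cell, as log2(intensity + pseudocount), with epiblast-like and primitive endoderm-like cells side by side, bars for mean and SD and a grey band for the range of array floors. Mcm7 and Pcna form tight groups between 11.9 and 12.7, while Ccne1, Ccne2, Pola1 and Orc1 have cells above and below the band.

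Licensing genes were read in nearly all cells. Cdt1, which loads the helicase, had 11.39, 12.02 and 12.54 as lowest, median and highest level, and Gmnn, which encodes the CDT1 inhibitor geminin, 10.77, 11.48 and 12.26. Cdt1 differed between clusters by -0.23 and Gmnn by 0.38, each less than the larger SD of the clusters (0.32 and 0.46). Cdc6, an ATPase that recruits the helicase, was above the floor in 19 cells (6.02, 8.95 and 10.58, lowest in cell 11). Of the origin recognition subunits, Orc2 (7.28, 8.82 and 9.95) and Orc6 (8.04, 9.81 and 10.82) were above it in all 20 cells, with differences of 0.74 and -0.69. A second Orc2 probe set, read in 14 cells, differed by 0.02 and had r = -0.13 with the first, and without cells 4, 8, 17 and 20 the Orc2 difference was 1.05. The Cdc6 difference was -0.23 over all cells and 0.35 without those 4. Orc1, the subunit with cell cycle-dependent abundance, was above it in 18 cells, with 3.25, 8.94 and 10.52 as lowest, median and highest level. The 2 exceptions, cells 1 and 13, were at the lowest possible value and both epiblast-like, and their values set the difference of -0.65, which was 0.02 when low values were raised to the floor.

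The 6 subunits of the MCM helicase were above the floor in all 20 cells. By its brightest probe set, Mcm7 ran from 12.09 to 12.67 with a median of 12.34, the smallest SD among the 41 genes read in at least 10 cells (0.15). Its other 3 probe sets, also above the floor in all 20 cells, had SDs of 0.38, 0.31 and 0.22. Mcm2 ran from 11.22 to 12.21, Mcm5 from 11.19 to 12.38 and Mcm6 from 11.52 to 12.54, each with an SD of 0.29 or 0.30. Mcm4 (10.41 to 12.13, SD 0.43) was lowest in cell 1, and Mcm3 (9.36 to 11.70, SD 0.64) was lowest in cell 5. Other Mcm3 probe sets above the floor in all 20 cells had r = 0.99, 0.93 and 0.13 with the brightest. Differences between clusters ran from -0.34 (Mcm4) to 0.24 (Mcm6), 3 in each direction. Over the 20 cells the 15 pairs of subunits had a median Pearson's r of 0.30 (0.29 without cells 4, 8, 17 and 20), against a median of -0.0028 over all pairs of 7843 genes read in at least 10 cells. The highest was that of Mcm3 and Mcm5 (r = 0.61, rho = 0.52). The points of each r are the same 20 amplified cDNAs, so it includes whatever the genes of 1 array share.

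The genes that start the helicase were also widespread. Mcm10 (8.03, 10.70 and 11.37), Cdc45 (7.16, 9.28 and 10.46) and Gins1 (9.45, 10.81 and 11.24) were above the floor in all 20 cells, and Gins2 in 19 (5.99 in cell 1, with a median of 10.08). Mcm10 was lowest in cells 8 and 4 and Cdc45 in cells 3 and 4, and their epiblast-like means were higher by 0.47 and 0.50, within the larger SD of the clusters. Without cells 4, 8, 17 and 20 these differences were -0.14 and 0.31.

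By the brightest probe sets, the epiblast-like mean was the higher for 6 of 6 polymerase and primase genes (background over all genes: 53.7% of 10437). Prim1, the catalytic primase subunit, was read in all 20 cells (9.94, 10.85 and 11.91), as were Pold1 (8.26, 10.21 and 11.06) and Pole (6.95 in cell 4 to 11.29), the catalytic subunits of polymerases delta and epsilon. They differed by 0.55, 0.59 and 0.64, each less than the larger SD of the clusters, and Pole by 0.16 without cells 4, 8, 17 and 20. Prim2, the large primase subunit, was above the floor in 19 cells and differed by 0.44. A second Prim2 probe set, read in 18 cells, differed by -0.05 (r = 0.69 with the first), so its direction depends on the probe set.

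The 2 polymerase alpha genes had the largest differences of this direction. Pola1, the catalytic subunit, was above the floor in 9 epiblast-like cells and 6 primitive endoderm-like cells. Its epiblast-like cells had 3.25, 9.91 and 10.67 as lowest, median and highest level, and its primitive endoderm-like cells 3.25, 8.28 and 9.96. Cells 16 and 17, 1 of each cluster, were at the lowest possible value. The difference in means was 1.54 (9.18 ± 2.29 against 7.64 ± 2.16, SD), below either SD. Without cells 4, 8, 17 and 20 it was 0.47.

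Pola2, the regulatory subunit of polymerase alpha, was above the floor in 9 and 7 cells. Its epiblast-like cells had 6.70, 9.08 and 10.41 as lowest, median and highest level, and its primitive endoderm-like cells 4.61, 7.91 and 9.12, with cells 5, 8 and 15 under 5. The difference was 1.70 (9.04 ± 1.02 against 7.34 ± 1.86), and 1.13 when low values were raised to the floor. The mean of all probe sets gave 0.74 for Pola1 and 0.51 for Pola2, but their other probe sets were above the floor in 0 cells.

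The sliding clamp and its loader were read in every cell. Pcna, the clamp, had 11.92, 12.38 and 12.63 as lowest, median and highest level (SD 0.22) and differed by -0.07. The 5 loader subunits Rfc1 to Rfc5 ran from 6.74 (Rfc3 in cell 12) to 11.59 (Rfc5 in cell 7). By the brightest probe sets, Rfc5 had the largest difference of the group, 0.86 (10.91 ± 0.50 against 10.05 ± 0.50). This was larger than the SD of either cluster although the groups overlapped, at 10.01 to 11.59 and 9.20 to 10.72. Rfc1 went the other way by -0.52. A second Rfc1 probe set, also above the floor in 20 cells, differed by -0.06 and did not follow the first (r = -0.02). Rfc3 differed by 0.49, and by 1.05 in a second probe set read in 14 cells (r = 0.49 with the first).

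Genes of single-strand binding and Okazaki fragment joining were above the floor in all 20 cells. Rpa1 and Rpa2 encode subunits of the complex that coats single-stranded DNA. Rpa1 ran from 7.10 in cell 5 to 11.28, and Rpa2 from 9.17 to 10.60. Rpa2 was the gene of this set whose primitive endoderm-like mean was higher (9.63 ± 0.36 against 10.07 ± 0.34, difference -0.43, larger than either SD). Fen1, the flap nuclease (9.96, 10.69 and 11.33), and Lig1, the ligase (10.04, 11.07 and 11.67), differed by 0.13 and 0.14. A second Fen1 probe set, also above the floor in all 20 cells, differed by 0.32 (r = 0.27 with the first).

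Of the genes of nucleotide and histone supply, both ribonucleotide reductase genes were read in all cells. Rrm1, the large subunit, ran from 10.21 to 11.64. Rrm2, the small subunit whose level is known to be tied to S phase, ran from 8.66 in cell 8 to 12.51 in cell 20, with 9.9 in cell 4, and its median was 11.44. Its difference between clusters was 0.19, and its variance was 8.15 times the trend fitted to all genes at its level, against a median of 1.96 over all genes. Of the other Rrm2 probe sets, 1 read in 16 cells differed by 1.06 (r = 0.36 with the brightest). Another, read in 20 cells, differed by 0.01 (r = 0.98). The SD of the brightest, 0.89, was 0.52 without cells 4, 8, 17 and 20, and its difference was -0.14. Slbp, which binds the stem-loop of histone mRNA, had 8.43, 10.51 and 11.66 and differed by -0.64 (10.13 ± 0.88 against 10.77 ± 0.53), and by -0.41 without those cells. Chaf1b, of the chromatin assembly factor, was above the floor in 19 cells (6.44, 7.87 and 9.76).

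Counted together by their brightest probe sets, few of the genes differed by 1 log2 unit between the clusters. Of the 44 that exceeded the floor in 3 or more cells, 3 (E2f1, Pola1 and Pola2) had a mean higher by at least 1 log2 unit in the epiblast-like cells (background: 10.9% of 10437 genes), and 1 (Ccne2) in the primitive endoderm-like cells (background: 7.63%). In 0 of 44 did the clusters fail to overlap (background: 0.249%). For 39 of 44 the difference stayed below the SD of the more variable cluster, the exceptions being Ccnd3, Ccne2, Orc6, Rfc5 and Rpa2. That share was not counted over all genes, so it cannot be read as a trait of this family. The median size of the difference was 0.36, beside 0.35 over all genes. The median difference was 0.14, with 25 genes in the epiblast direction and 19 in the other, against 0.035 over all genes, and without cells 4, 8, 17 and 20 it was 0.054. The counts were 2 and 0 when low values were raised to the floor, where the background was 3.82% and 3.33%. The median ratio of variance to the fitted trend was 1.93, beside 1.96 for all genes.

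Other lists of related genes were counted in the same way. Of 41 other fork and origin genes, 7 were higher by at least 1 in epiblast-like cells and 0 in the others, with a median of 0.26. Raised to the floor, 1 was, and without cells 4, 8, 17 and 20 the median was 0.092 with counts of 7 and 0 of 40. The extremes of that list were Chtf18, of the alternative clamp loader (3.01, above the floor in 10 and 4 cells), and Casp8ap2 (1.65), and at the other end Orc5 (-0.33) and Asf1a (-0.29). Of 17 measured G1 and S regulators, 4 were higher by as much in epiblast-like cells and 2 in the others. The growth regulator gene Myc (2.25) and the CDK4 and CDK6 inhibitor gene Cdkn2d (2.16) were at 1 end, and E2f3 (-2.02) and Mycn (-1.78) at the other. With low values raised to the floor these were 1.45, 0.34, -0.83 and -1.19, and the counts were 2 and 1. Rb1, Cdkn1c, Cdkn2a and Cdkn2b, which restrain the G1 engine, were above the floor in 0 cells by the probe sets used, 4 of 26 genes (background: 33.5%). Other inhibitor genes of the list were read, Cdkn2c in 20 cells, Cdkn1b in 17 and Cdkn2d in 6. These genes were named after their values were seen.

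The G2 and M phase genes, by comparison, had 11 of 28 higher by at least 1 in epiblast-like cells and 0 in the others, with a median of 0.84 and a variance ratio of 5.47. With low values raised to the floor the counts were 10 and 0 and the median was 0.51. Cenpf (3.81) and Nusap1 (3.01) were at 1 end and Ccnb2 (-0.10) and Bub1 (-0.09) at the other. An alternative without cells 4, 8, 17 and 20 was added after the data were seen. Its median was 0.24 and its counts were 5 and 1 (background over the other 16 cells: 10.7% and 8.52%). The cells left out were all primitive endoderm-like and had the lowest scores on these same genes. Leaving them out therefore lowers the difference by construction. The gap between the lists was not tested.

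**Figure D3:**
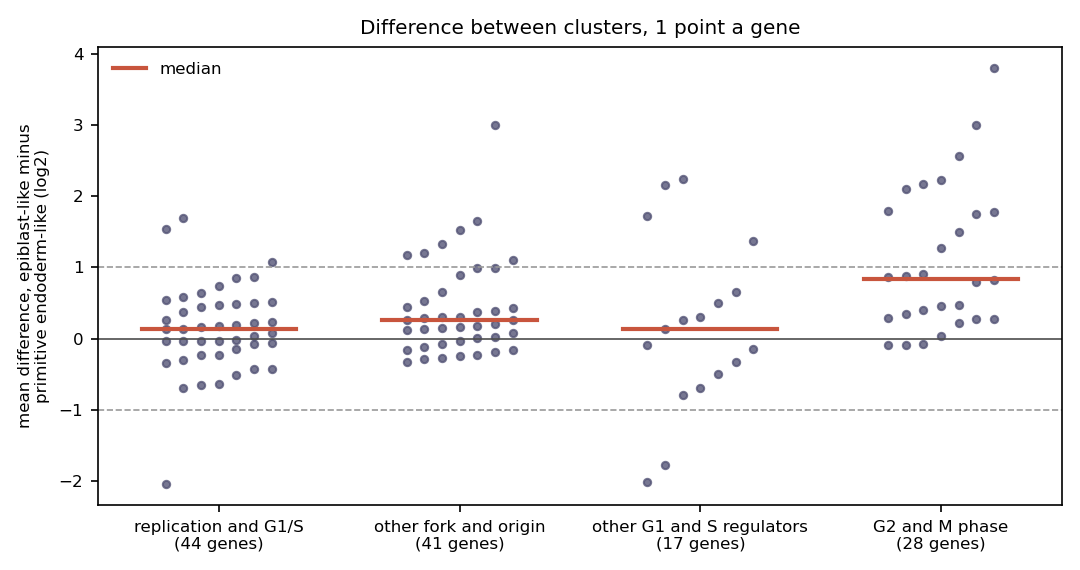
Difference in mean level (epiblast-like minus primitive endoderm-like, log2) of each gene that exceeded the floor in 3 or more cells, in 4 lists, with red lines for medians and dashed lines at 1 and -1. The replication genes centre on 0.14 with 4 genes past the dashed lines, and the G2 and M phase genes on 0.84 with 11.

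The replication score of a cell, the mean of the 44 genes centred per gene, had an SD of 0.22 over the 20 cells, and the G2 and M phase score of 28 genes an SD of 1.01. The replication score was 0.068 ± 0.18 (SD, n = 10) in the epiblast-like cells, from -0.21 to 0.28, and -0.068 ± 0.25 in the primitive endoderm-like cells, from -0.48 to 0.25, so the clusters overlapped. The mean difference of 0.14 was 0.088 without cells 4, 8, 17 and 20. Cells 4 (-0.48) and 8 (-0.34) had the lowest replication scores and also the lowest G2 and M phase scores (-2.61 and -1.93). Cells 20 and 17, the next lowest in the mitotic score (-1.15 and -1.16), had replication scores of 0.23 and 0.03. Of the 32 genes read in every cell, 6 had their lowest level in cell 4 and 0 their highest, and cells 3 and 5 held 4 lowest levels each. Cell 13 held 5 highest levels, and cells 9, 14, 17 and 20 held 4 each. Over the 20 cells the scores had r = 0.35 and rho = 0.04. Once the 2 cells with the most extreme replication scores were left out, r was -0.32. Within the epiblast-like cluster r was -0.48. Within the other it was 0.43, and -0.45 once its 2 cells with the most extreme replication scores were left out. Over the 16 cells other than 4, 8, 17 and 20 it was -0.29, so the pooled 0.35 rests on few cells. The replication score had r = 0.15 with the share of genes above the floor and 0.32 with the mean correlation to the other cells. With the 2 cells of the most extreme replication scores left out these were 0.069 and -0.086.

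**Figure D4:**
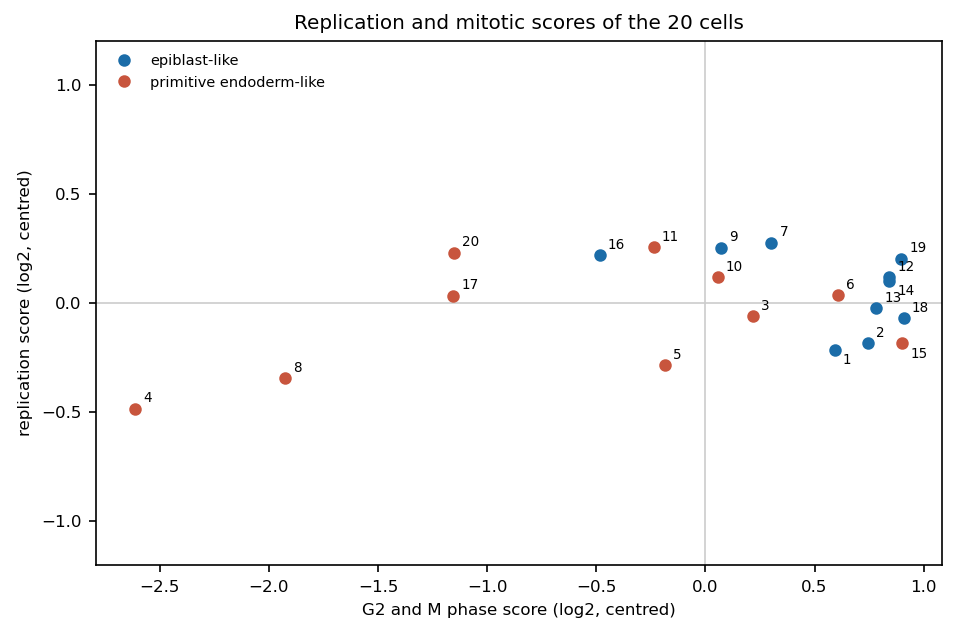
Replication score against G2 and M phase score of the 20 cells (both in log2 units, centred), numbered by cell and coloured by cluster. The cells spread from -2.61 to 0.91 along the mitotic axis and from -0.48 to 0.28 along the replication axis, with cells 4 and 8 low on both and cells 17 and 20 low on the mitotic axis only.

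Genes of this family followed each other loosely over the cells. Over 820 pairs of the 41 genes read in at least 10 cells the median r was 0.091, with 62.9% of pairs above 0, and 0.075 without cells 4, 8, 17 and 20. The 378 pairs of G2 and M phase genes had a median of 0.36, and 0.17 without those cells, which had the lowest scores on these same genes. The highest pairs were Orc6 with Cdt1 (r = 0.73, rho = 0.65), Mcm10 with Rrm2 (r = 0.72, rho = 0.31) and Gmnn with Mcm6 (r = 0.70, rho = 0.70). They were picked from 820 for their size and are given as values only. Other probe sets of the same genes, 31 of which were above the floor in at least 10 cells, followed the brightest one with a median r of 0.86, from -0.13 to 0.99, and 30 of 31 had the same sign of difference between clusters.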

How the data were processed

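Levels came from 1 expression array per cell. The authors deposited 1 linear intensity per probe set and cell, and the software that summarised the probes is not given in the sources used here. Deposited values ran from 1 to 26616, with 10.1% to 13.4% of them at 1 per array. The 2% trimmed means ran from 182.5 to 221.2, more than 5% apart, so the arrays were quantile normalized and taken to log2(intensity + 8.48), the pseudocount being the 25th percentile. Of 45101 probe sets (64 of them controls), 34945 were annotated to 1 gene, 932 to several and 9160 to none, and 34741 were matched to RefSeq. Each gene was read by its brightest probe set, giving 18193 genes. The floor of an array is the 95th percentile of 135 probe sets of unrelated tissues, and differences were counted over the 10437 genes above it in at least 3 cells. Cells were clustered by Ward's method. There is 1 group with no named embryos, so no test was run and the number of arrays limits the precision. The members and lists were chosen with earlier results of these data known. Every member is accounted for, and genes of other lists are named as the extremes of their list by difference, except where the text says that they were chosen after their values were seen. Alternatives covered the pseudocount, the floor, the choice of probe set and cells left out. Promoters came from RefSeq (GRCm38.p6). Software was Python 3.11.15 with numpy 2.4.6, pandas 2.3.3, scipy 1.17.1, scikit-learn 1.9.0 and matplotlib 3.10.9, and R 4.3.3 with limma 3.58.1.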

Additional observations from a re-analysis of the deposited data

How the results depend on the processing

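No paired analysis was possible because all cells form 1 group and no test was run. The number of replication genes above the floor in 0 cells, 1 as reported, was 0 with the floor at the 90th percentile, 2 at the 99th and 2 with the mean of all probe sets. The count higher by at least 1 in the epiblast-like cells, 3 as reported, was 0 with the mean of all probe sets. The count higher in the primitive endoderm-like cells, 1 as reported, was 2 with the pseudocount at the 10th percentile, 0 with the floor at the 99th and 0 with values raised to the floor. The correlation of the 2 scores, 0.35, was -0.29 without cells 4, 8, 17 and 20, which earlier results of these data had set apart. The cause of these shifts was not tested. The remaining 60 summary values moved by at most 1.5 times for a count, or less than 1 SD within clusters for a difference (for the correlation, less than its approximate standard error). These limits are wide: the count in all 20 cells ran from 23 to 34, the score difference from 0.067 to 0.20 and the correlation was 0.16 when all probe sets were averaged. For 16 named genes, 175 values stayed within the SD and 1 did not (Ccnd3, 0.15 when all probe sets were averaged). Within it, Pola1 still ran from 0.47 to 1.59, Ccne2 from -2.87 to -0.64 and Orc1 from -1.08 to 0.015, where the sign turned. A level near the floor has no dependable order, and differences of genes read in few cells, such as Ccne2, move with the pseudocount (-2.87 at the 10th and -1.43 at the 50th percentile).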
